A study of Danio rerio with 12 samples.

Results

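The transcripts of dusp1, dusp6 and ier5 were followed in brain, intact retina and regenerating retina of adult zebrafish. All probe sets whose single platform gene symbol is one of these 3 names were taken, which gave 4 of 15502 probe sets and 3 of 8793 genes. The gene dusp6 had 2 probe sets, and dusp1 and ier5 had 1 each. The 3 genes were chosen with their signals on these arrays known, both for brain against intact retina and for the lesion, so their values in both comparisons are a description and carry no test.

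Total RNA was hybridized to 12 Affymetrix zebrafish arrays, and the unit throughout is the scaled signal of a probe set on a linear scale. Adult brain was on 1 array, and 1 more held unlesioned adult retina, the "true" control of the submitters. Lesioned retinas and their controls had 5 arrays each, 1 for each of days 2, 3, 5, 7 and 14 post-lesion. Control and lesioned retinas came from matched animals, with at least 8 animals per condition in the design text. The sources used here give neither the means of lesion, the number of animals behind an array, nor their strain, sex and age beyond adult. Each day and tissue therefore has 1 array per condition. The spread behind every p-value is that between arrays, some of which may be technical.

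The product of dusp1 is a dual-specificity phosphatase of the nucleus, known in mammals as MKP-1, that removes the activating phosphates of the MAP kinases p38, JNK and ERK. That of dusp6, known as MKP-3, is a cytoplasmic phosphatase selective for ERK. Its gene is itself switched on by FGF signalling through ERK in the zebrafish embryo, which makes it a feedback inhibitor and a common readout of that pathway. The product of ier5, an immediate early response gene, is known from mammalian cells to work with the phosphatase PP2A and the heat shock factor HSF1. In the zebrafish retina, Müller glia divide after injury and give rise to new neurons.

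The arrays lay in 2 groups, called array blocks here, that cut across lesion status. The signal ratio of the 5' to the 3' GAPDH probe sets, a sign of RNA and target integrity, was 0.692 to 0.854 in block 1 (brain, true control, both arrays of days 2 and 14) and 0.103 to 0.245 in block 2 (both arrays of days 3, 5 and 7). On 5 of 5 days the lesioned array had the lower ratio of the pair. Tissue labels were checked on rod markers, of which 8 of 17 listed were on the array and none was at 0. Their summed signal was 5072 in brain and 101707 to 118707 in the 6 unlesioned retinas. The rod transducin gene gnat1 was at 312.5 in brain, against at least 18019 in each unlesioned retina.

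Brain had a lower signal than any retina on at least 1 probe set of each of the 3 genes, and lowest relative to retina for dusp1. The signal of dusp1 was 57.7 in brain and 1359.7 in the true control retina. The control retinas of days 2, 3, 5, 7 and 14 had dusp1 signals of 1913, 946.9, 1149.8, 1524 and 1273. All 11 retinas lay above brain, and the mean over the 6 unlesioned retinas was 1361 ± 333 (SD, n = 6). The brain value ranked at the 17.5th percentile of its array and lay under that array's lower quartile of 81.2. Without detection calls it is not shown to be above background, so no signal ratio to brain is given for dusp1, and the size of its difference on a log2(signal + 50) scale depends on the added 50. On that scale dusp1 was at -3.68 in brain relative to the mean of the 6 unlesioned retinas, and at -4.19 or -3.18 with 16 or 100 added.

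**Figure D1:**
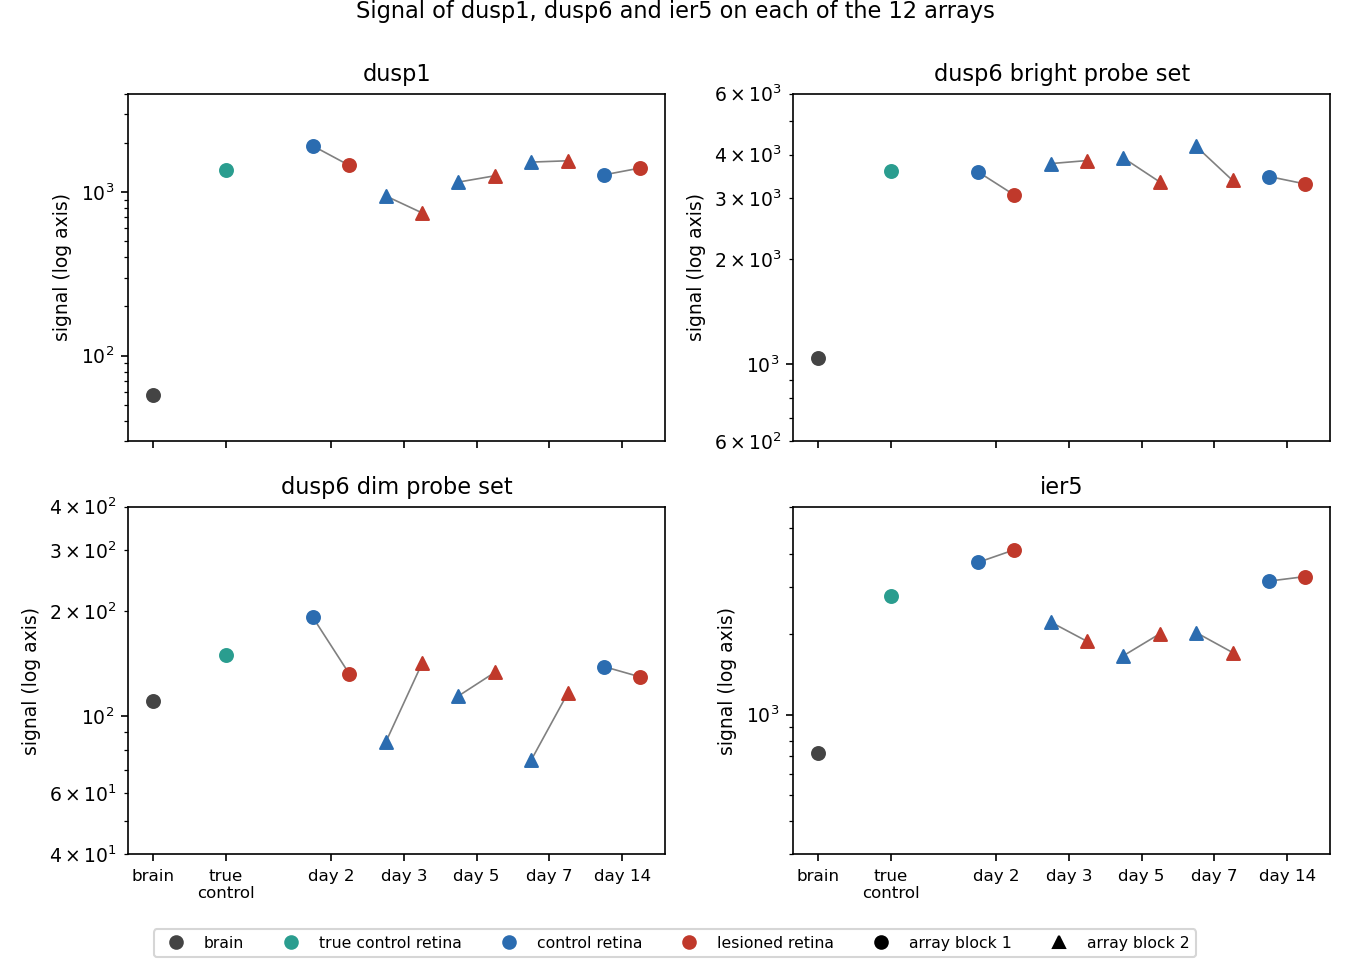
Signal of each probe set on the 12 arrays, on log axes with a separate range per panel. Points are single arrays coloured by group, circles are array block 1 and triangles block 2, and grey lines join the control and lesioned array of a day. Brain lies below all 11 retinas for dusp1 (57.7), the bright dusp6 probe set (1043.7) and ier5 (717.8), but inside the retina range for the dim dusp6 probe set (110.5).

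The brighter dusp6 probe set had the steadiest signal of the 4 across intact retinas. It was at 1043.7 in brain and 3601 in the true control retina. Its signals in the control retinas of days 2, 3, 5, 7 and 14 were 3574, 3772, 3914, 4226 and 3463. The highest unlesioned retina was thus 1.22 times the lowest, and every retina lay above brain. The mean was 3758 ± 279 (SD, n = 6), 3.60 times brain, or -1.80 for brain relative to intact retina on the log2(signal + 50) scale. The SD of its 6 log2 values was 0.10, against a median of 0.35 over the 9301 probe sets tested.

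The second dusp6 probe set was dim and did not show the same difference over the retinas of both blocks. Its signal was 110.5 in brain, 150.1 in the true control, and 192.1, 84.0, 114.2, 74.7 and 138.7 in the control retinas of days 2, 3, 5, 7 and 14. Brain lay inside that range, 0.09 below the retina mean on the log2(signal + 50) scale. The mean of the brain value and the unlesioned retina mean was 118, under the limit of 139.9 for testing in that comparison, so it was left out of the brain fit. Without the day 2 control the difference was 0.01, with the opposite sign. Against the unlesioned retinas of block 1 alone, the block of the brain array, it was -0.38. Brain lay below all 5 retinas of that block (129.5 to 192.1) and inside the range of the 6 of block 2 (74.7 to 141.7). Over the retinas of both blocks the dusp6 difference therefore rests on 1 of its 2 probe sets. Within block 1 both had the lower signal in brain.

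The gene ier5 was also lower in brain. Its signal was 717.8 in brain and 2786 in the true control retina. In the control retinas of days 2, 3, 5, 7 and 14 it was 3711, 2220, 1661, 2027 and 3159. The lowest of these was 2.31 times brain, and the mean of 2594 ± 766 (SD, n = 6) was 3.61 times brain. On the log2(signal + 50) scale brain was at -1.73 relative to the 6 retinas and at -2.08 relative to the 3 of block 1. The retinas split by array block without overlap, at 2786 to 4137 on 5 arrays of block 1 and 1661 to 2220 on 6 arrays of block 2, lesioned arrays included. In the unlesioned retinas alone, both dusp6 probe sets also split by block without overlap. The brighter one was at 3463 to 3601 in block 1 and 3772 to 4226 in block 2. The dim one was at 138.7 to 192.1 and 74.7 to 114.2. With lesioned arrays included, the blocks overlapped for both. The part of the block in these levels was not tested.

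Brain thus lay below all 11 retinas for 3 of the 4 probe sets, as it did for 17.3% of the 9301 probe sets tested. It was at least 2-fold below the mean of the unlesioned retinas for the same 3, and for 9.25% of all tested. Differences as low as that of dusp1 were found in 1.48% of probe sets, as low as that of the brighter dusp6 probe set in 4.24%, and as low as that of ier5 in 4.45%. These shares are background figures and no evidence about genes that were chosen on this comparison. The median of all 9301 was 0.15 higher in brain than in the 6 unlesioned retinas and 0.06 higher than in those of block 1. Tissue RNA cannot tell fewer cells of a type from less RNA per cell. Brain and retina differed widely in cell markers, with a summed leukocyte and microglia signal of 19569 in brain against 3523 to 6628 in the unlesioned retinas (19 of 27 markers on the array, none at 0). Most of the brain sum came from apoc1 (6986), cd74a (6106) and cd74b (2884). Not all markers went that way: lyz was at 80.3 in brain against 107.9 to 154.8, and csf1ra at 8.2 against 8.3 to 49.0. The part of cell makeup in these differences was not tested.

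The level of the 3 genes in the true control retina fell inside the range of the 5 day controls for all 4 probe sets. Among the 3 unlesioned retinas of block 1 alone, the true control was the lowest for ier5 (range 2786 to 3711). For the brighter dusp6 probe set it was the highest of those 3 (range 3463 to 3601). Ordered by mean signal, dusp1 ran from brain (57.7) to lesioned retina (1282 ± 318, SD, n = 5), the true control (1359.7) and control retina (1361 ± 373, n = 5). Neighbouring retina groups in that order differed by less than 1 SD. The brighter dusp6 probe set ran from brain (1043.7) to lesioned (3384 ± 286), true control (3601) and control retina (3790 ± 300). Each step between neighbouring retina groups was under 1 SD, but the lesioned and control means lay more than 1 SD apart. For ier5 the order was brain (717.8), control (2556 ± 850), lesioned (2603 ± 1061) and true control (2786), and the retina groups lay within 1 SD of each other. The true control was on an array of block 1, where it was the lowest of the 5 retinas for ier5. The control and lesioned means mix 2 arrays of block 1 with 3 of block 2. The orders and SDs of the 3 genes thus include differences between blocks and leave out the pairing by day.

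After the lesion none of the 3 genes moved far. Matched ratios are the log2(signal + 50) of a lesioned array minus that of the control array of the same day. The lesioned signals of dusp1 were 1454, 745.5, 1257, 1552 and 1402 on days 2, 3, 5, 7 and 14. Its matched ratios were -0.38, -0.33, 0.12, 0.03 and 0.13 on those days, lower than control on the first 2 days and slightly higher on the last 3. Their mean was -0.09 ± 0.25 (SD, n = 5). The lowest corresponds to a fold of 0.766.

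The brighter dusp6 probe set had lesioned signals of 3064, 3848, 3339, 3374 and 3295. Its matched ratios were -0.22, 0.03, -0.23, -0.32 and -0.07, below 0 on 4 of 5 days. The mean was -0.16 ± 0.14 (SD, n = 5), and the values of lesioned and control retinas overlapped. The mean was -0.14 over the pairs of block 1 and -0.17 over those of block 2.

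The dim dusp6 probe set had lesioned signals of 132.2, 141.7, 133.5, 116.1 and 129.5. Its matched ratios were -0.41, 0.52, 0.16, 0.41 and -0.07, which had opposite signs in the 2 array blocks. The lesioned arrays spanned a narrower range than the controls, 116.1 to 141.7 against 74.7 to 192.1. The mean of 0.12 ± 0.38 (SD, n = 5) turned to -0.24 with the GAPDH ratio of each array as a covariate. No direction is given for this probe set.

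For ier5 the lesioned signals were 4137, 1880, 2007, 1707 and 3286. Its matched ratios alternated around 0, at 0.15, -0.23, 0.27, -0.24 and 0.06 on days 2, 3, 5, 7 and 14, with an SD of 0.23. The lowest corresponds to a fold of 0.846.

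**Figure D2:**
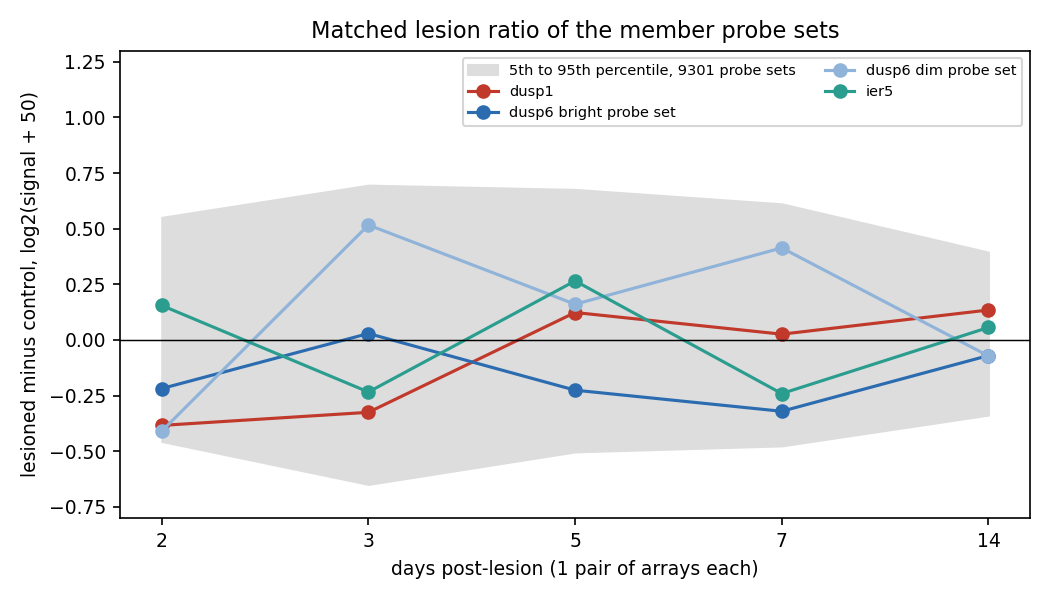
Matched lesion ratio of the 4 probe sets (lesioned minus control, log2(signal + 50)) against days post-lesion, with 1 pair of arrays per point. The grey band is the 5th to 95th percentile of 9301 probe sets on that day, and all 20 member values lie inside it.

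None of the 4 probe sets passed 2-fold on any day. Of the 9301 tested, 1.44%, 2.41%, 1.9%, 1.41% and 0.29% passed 2-fold in either direction on days 2, 3, 5, 7 and 14. The signals of lesioned and control retinas overlapped for all 4, and were apart for 0.925% of probe sets. No member kept 1 sign on all 5 days, as 16.5% of probe sets did. The 20 member ratios all lay between the 5th and 95th percentile of their day, which on day 2 were -0.46 and 0.55 and on day 3 were -0.65 and 0.70. With 1 pair a day, small changes cannot be told from the spread between arrays.

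Cell marker signals in the retina RNA moved with the lesion all the same. The summed signal of leukocyte and microglia markers was 3523 to 6628 in control and 6917 to 14805 in lesioned retinas, and 10 of 15 tested markers rose in limma. Rod markers summed to 101707 to 116686 in control and 80998 to 97219 in lesioned retinas, with 2 of 8 down. Müller glia markers (13 of 17 on the array) summed to 44617 to 50632 and 46052 to 62359, with 4 of 11 up. Of these markers glula, rlbp1a, cahz and aqp1a.1 had mean matched ratios of -0.13, -0.23, -0.12 and -0.26, and the others were above 0. Over all probe sets 3.56% were called up and 0.538% down. No marker of these lists was at 0, and their part in the member values was not tested.

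Genes listed as other feedback inhibitors of the ERK pathway or as phosphatases also gave no call after the lesion. Of 45 listed genes 18 were on the array and 15 were tested, and limma called 0 of the 15, against 4.1% of all probe sets in either direction, 3.56% up and 0.538% down. At an unadjusted p under 0.05 there were 2. The list median was -0.02, beside -0.01 for all probe sets. The largest mean changes were in dusp5, a nuclear phosphatase of ERK (-0.29 ± 0.11 SE, limma adjusted p = 0.149), and dusp23b (-0.25 ± 0.12, adjusted p = 0.257). The matched ratios of dusp5 were -0.13, -0.63, -0.38, -0.23 and -0.07 on days 2, 3, 5, 7 and 14. Sprouty genes encode inhibitors of receptor tyrosine kinase signalling, and spry2 and spry4 had changes of 0.12 ± 0.14 and -0.05 ± 0.10.

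Between brain and intact retina 3 of 15 tested genes of that list differed in limma, 1 higher and 2 lower in brain, against 11.5% of all probe sets, 6.81% higher and 4.73% lower. The gene dusp2, an immediate early nuclear phosphatase in mammals, was lower in brain, at 272.3 against 749.6 to 1932 in the 6 unlesioned retinas (-1.93 ± 0.51, adjusted p = 0.0481). The gene rasa1a, for a GTPase activator that switches RAS off, was at 75.6 against 243.2 to 467.2 (-1.83 ± 0.34, adjusted p = 0.0107). The gene dusp23b was higher in brain, at 692.7 against 122.2 to 311.2 (1.61 ± 0.39, adjusted p = 0.0364). Without 1 of the retinas dusp2 lost its call in 5 of 6 cases (all but the day 5 control) and dusp23b in 4 of 6 (all but the true control and the day 3 control), with adjusted p up to 0.0835 and 0.0639. The list median was 0.19, beside 0.15 for all probe sets.

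**Figure D3:**
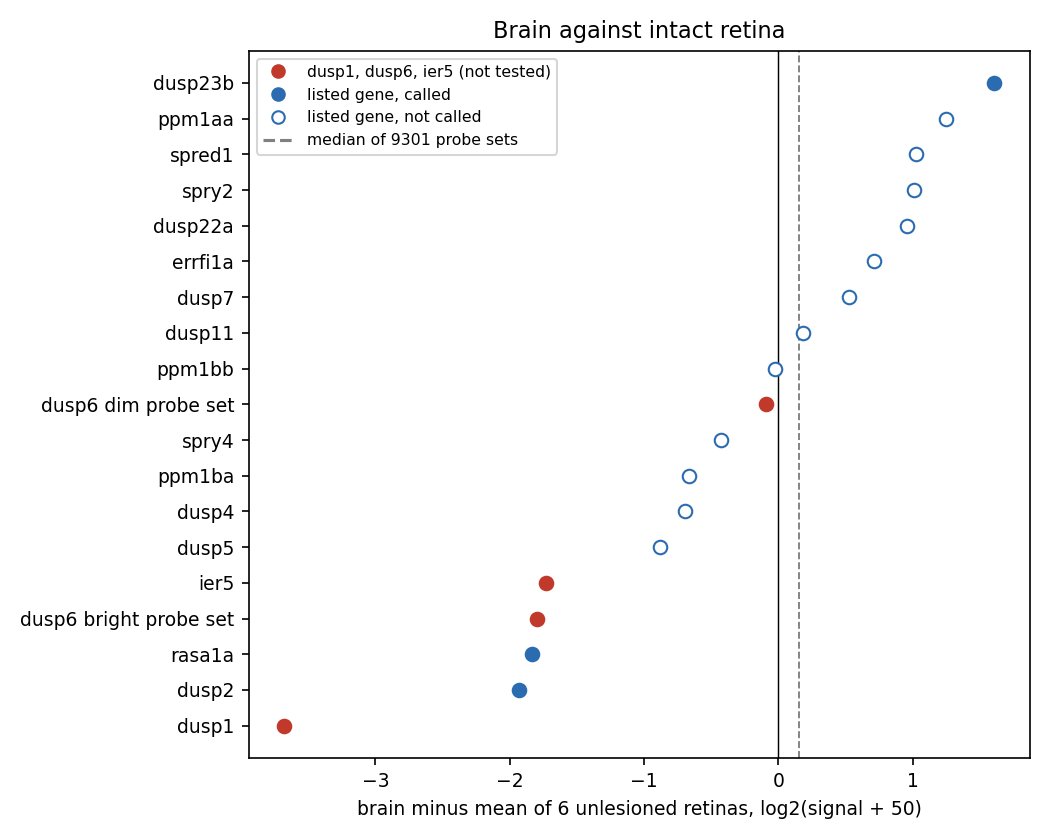
Brain minus the mean of the 6 unlesioned retinas, on the log2(signal + 50) scale, for the 4 member probe sets (red, not tested) and the 15 tested feedback inhibitors and phosphatases (blue, filled where limma's adjusted p was under 0.05). The dashed line is the median of 9301 probe sets at 0.15, and dusp1 lies lowest of the genes drawn at -3.68.

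In the lists of receptor, ETS and kinase cascade genes, single genes rose or fell after the lesion. Among FGF and EGF receptor ligands, receptors and ETS genes, 14 of 30 on the array were tested, and 1 rose and 1 fell, which is 14.3% beside 4.1% of all probe sets. With 1 day left out 0 (day 3 or 5) to 3 (day 14) were called. The riser was etv4, an ETS factor induced by FGF signalling in zebrafish embryos, from a mean signal of 81.7 to 153 (0.60 ± 0.15 SE, adjusted p = 0.0375). Its matched ratios were 0.06, 0.43, 1.03, 0.63 and 0.85. The other tested ETS genes of the list were not called. The brighter etv5b had a mean signal of 3624 in control and 2798 in lesioned retinas (-0.34 ± 0.10, adjusted p = 0.0676). For etv5a the change was -0.16 ± 0.10, and for ets2, erf and gabpa it was 0.05, 0.03 and 0.20. The one that fell was insra, an insulin receptor gene (-0.43 ± 0.11, adjusted p = 0.0365), whose other tested probe set was at -0.25. The list median was 0.03. In brain the FGF receptor gene fgfr2 was higher (2.75 ± 0.34, adjusted p = 0.00148), with its other probe set at 0.79. It was the 1 gene called of 14 tested there, 7.14% of the list beside 11.5% of all probe sets.

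Of 31 tested genes of the RAS, ERK, p38 and JNK cascade 2 rose and 1 fell after the lesion, 9.68% beside 4.1% of all probe sets, with a list median of -0.03. Without day 2, 3 or 7 none was called by limma, without day 5 there was 1, and without day 14 there were 4. The risers were ptpn11a, for the phosphatase SHP2 that carries receptor signals to RAS (0.49 ± 0.11, adjusted p = 0.0192), and rras, a RAS-related GTPase (0.50 ± 0.11, adjusted p = 0.0221). Another probe set of ptpn11a was at 0.09. The one that fell was mknk2a, a kinase that ERK activates and that acts on the translation factor eIF4E in mammals (-0.45 ± 0.11, adjusted p = 0.0366). It was also lower in brain than in intact retina (-2.11 ± 0.40, adjusted p = 0.0121). In brain hrasb, a RAS gene (2.28 ± 0.43, adjusted p = 0.0121), and mapk11, a p38 kinase gene (1.51 ± 0.29, adjusted p = 0.0136), were higher, in a list with 3 up and 2 down of 32.

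Immediate early and serum response genes, the class to which ier5 and dusp1 belong in mammalian cells, rose in 9 of 46 tested cases after the lesion and fell in 0. That is 19.6% of the list, beside 3.56% of all probe sets that rose. Like the other lists, it was chosen with earlier results of these data known, so these shares are a description only. With 1 day left out, 3 (day 5), 5 (day 2, 3 or 7) or 15 (day 14) were called. Their median was 0.16, beside -0.01 for all probe sets, and 24 had an unadjusted p under 0.05. The stress-induced transcription factor genes atf3 (1.78 ± 0.20, adjusted p = 0.000251) and jun (1.54 ± 0.21, adjusted p = 0.000769) led. On day 2 the matched ratio was 3.00 for atf3, 2.60 for jun and 2.50 for fosab, a c-Fos gene, on the day when dusp1 was at -0.38 and ier5 at 0.15. By day 14 fosab was at 0.10.

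The other risers named by rule were cebpb (0.89 ± 0.17), cebpd (0.75 ± 0.17), mych (0.85 ± 0.18), junba (0.68 ± 0.17) and zfp36l1a (0.46 ± 0.10), all genes for transcription factors except zfp36l1a, for an mRNA decay factor. Their adjusted p lay between 0.00646 (cebpb) and 0.0399 (junba). The control mean of mych (78.3) lay under the filter limit of 114, so mych was tested only because its lesioned mean (198) was high. Both further tested probe sets of fosab and the second of jun went the same way, whereas a second cebpd probe set, too dim to be tested, was at -0.10. Closer relatives of ier5 gave no call: ier5l was at 0.28 ± 0.11 (adjusted p = 0.201) and ier2a at -0.13 ± 0.11 (adjusted p = 0.610). The early growth response gene egr1, a target of ERK, was at -0.06 ± 0.12 (adjusted p = 0.849). These relatives were named after their values were seen.

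**Figure D4:**
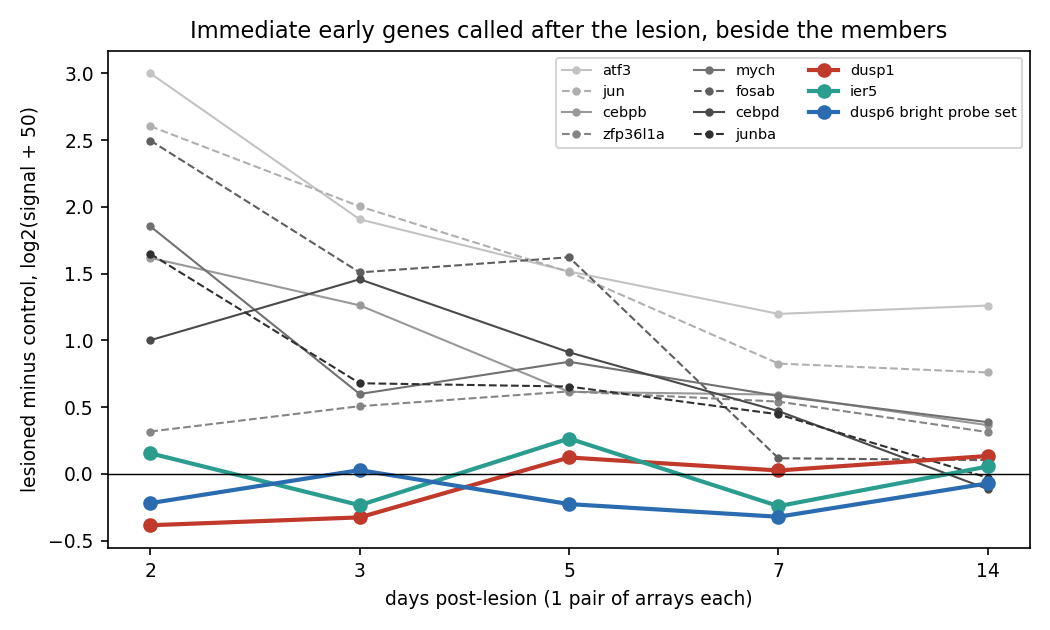
Matched lesion ratios (log2(signal + 50), lesioned minus control) by days post-lesion for 8 immediate early genes called over the 5 days (grey) and for dusp1, ier5 and the brighter dusp6 probe set (colours). On day 2 atf3 lies at 3.00 and jun at 2.60, whereas dusp1 lies at -0.38, ier5 at 0.15 and dusp6 at -0.22.

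Between brain and intact retina 3 of the 46 immediate early genes were higher in brain and 2 lower. That is 10.9% of the list, near the 11.5% of all probe sets. The antiproliferative gene btg1 was lower in brain, at 1486 against 5511 to 11207 (-2.22 ± 0.38, adjusted p = 0.00800), and so was sik1, a salt-inducible kinase gene, at 278.9 against 1329 to 4137 (-2.62 ± 0.59, adjusted p = 0.0249). The gene zfp36l2 was higher (1.74 ± 0.34, adjusted p = 0.0134). Its unlesioned retina mean (45.8, range 31.1 to 66.8) lay under the limit of 139.9 for testing in that comparison. The gene zfp36l2 was thus tested only because its brain signal (267.1) was high, and the size of its difference depends on the amount added to the signals. The genes atf3 and jun, which rose after the lesion, were at 0.06 ± 0.38 and -0.23 ± 0.31 in brain relative to intact retina, neither past the threshold.

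Among HSF1, heat shock and PP2A genes, chosen for the known partners of the ier5 product, 1 of 36 tested rose and 0 fell after the lesion, a share of 2.78% that is near the 4.1% of all probe sets. It was hspb1, a small heat shock protein gene (0.81 ± 0.14, adjusted p = 0.00453), in a list with a median of 0.02 and 7 genes at an unadjusted p under 0.05. On day 2 alone, with 1 pair of arrays, hsp70.3 was at 1.95, hspa5 at 1.55 and hspb1 at 1.16. On that day 1.44% of all probe sets passed 2-fold in either direction. The genes hsp70.3 and hspa5 were named after their values were seen. Neither was called by limma over the 5 days (adjusted p = 0.620 and 0.298). The lowest of the list that day was ppp2r2bb at -0.35. On day 3, which was in the other array block, hsp70.3 was at -0.09 and hspa5 at -0.03. The control signal of hsp70.3 was 108.0 on day 2 and 694.5 on day 3, and the lesioned signal was 562.0 and 651.8. For hspa5 the control was at 490.7 and 1213 and the lesioned array at 1530 and 1187. The part of the block in these differences between days was not tested. The factor gene hsf1 was at 0.08 ± 0.11 (adjusted p = 0.743) over the 5 days. In brain hspa8b (2.48 ± 0.29, adjusted p = 0.00105) and hsbp1a, for a protein that binds heat shock factor (2.38 ± 0.56, adjusted p = 0.0303), were higher, and 0 of 36 were lower. That is 5.56% of the list, beside 11.5% of all probe sets.

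The lesion calls rested on the pairing by day and on the arrays used. Of the 14 named genes called after the lesion, 10 lost their call in limma when 1 day was left out, with adjusted p up to 0.176, and atf3, jun, cebpb and hspb1 did not. The call of etv4 was lost without day 14, and those of the other 9 without at least 1 of days 2, 3, 5 and 7. The dim etv4 was tested in only 10 of the 14 alternatives. Its call was also lost under quantile normalization and without the filter on dim probe sets. With only the pairs of block 2, 11 of the 14 were called, and with only those of block 1 none of the 13 tested was. With GAPDH as a covariate, atf3 alone of the 14 was still called, and none of the 14 changed sign under the alternatives run.

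Likeness of lesion pattern was taken as the root mean square difference of the 5 matched ratios, over 5 pairs of arrays and all tested probe sets with 1 symbol. The gene closest to dusp1 was si:ch211-113p18.3 at 0.05, followed by msrb3, ppp1r14aa and slc40a1 at 0.07 to 0.08. For the brighter dusp6 probe set they were si:dkey-85k7.7, dnajb6a, kmt2ba and paqr3a at 0.05 to 0.07, and for ier5 flcn, hmgb1b, chd4b and si:dkey-33c12.4 at 0.04 to 0.06. The dim dusp6 probe set was closest to lpp, pds5a, ap5m1 and trir at 0.10 to 0.12. Relative to intact retina, the brain values of the genes closest to dusp1 were between 0.00 and 0.30, where dusp1 was at -3.68. Of those closest to the brighter dusp6 probe set (-1.80), paqr3a was at -1.84, kmt2ba at -1.02, si:dkey-85k7.7 at -0.90 and dnajb6a at 0.73. Those closest to ier5 (-1.73) were between -0.71 (chd4b) and 0.56 (si:dkey-33c12.4).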

How the data were processed

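The deposited values are signal intensities, 1 per probe set and array, made with GCOS per the submitters' processing notes (version and settings are not stated there). The mean intensity of each deposited array was 500.1 after leaving out the lowest and highest 2%, so the authors had scaled the arrays. After 115 manufacturer controls were left out, 15502 probe sets remained, of which 10795 had 1 symbol in the platform annotation. A RefSeq gene table (GRCz12tu) held the gene IDs of 10711 and updated 1 symbol. No sequences or coordinates are used here.

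Values were analysed as log2(signal + 50). Group means were averaged for each probe set and those below the 40th percentile dropped, leaving 9301 in each comparison. Tests were made with limma 3.58.1 (lmFit, eBayes with trend) in R 4.3.3, two-sided, with Benjamini-Hochberg adjustment over all probe sets tested and a threshold of 0.05. The lesion fit had the day as a block, from the design text's matched animals. Deviations of same-day arrays from their group means correlated at 0.666 to 0.853 over the 5 days. Both arrays of a day share an array block, so these correlations include block differences and cannot show the matching of animals apart from them. The brain fit set 1 array against 6 unlesioned retinas and assumed it to vary like them. No arrays were duplicates (highest Spearman correlation 0.982). A listed gene was represented by its brightest tested probe set, and members were not counted in lists. The scripts were tested on simulated data. The number of arrays limits the precision.

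Named genes were the members, up to 8 called genes per list in the lesion fit (failing any, the 2 with the largest change) and up to 3 in the brain fit, and the 4 genes closest to each member probe set. Members and lists were chosen with earlier results of these data known. Plots were drawn with matplotlib 3.10.9.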

Additional observations from a re-analysis of the deposited data

Results flagged for a closer look

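The matched ratios of the dim dusp6 probe set were below 0 on both days of array block 1 (-0.41 and -0.07 on days 2 and 14) and above 0 on the 3 days of block 2 (0.52, 0.16 and 0.41 on days 3, 5 and 7). The mean ratio was 0.60 higher in block 2 than in block 1 on the log2(signal + 50) scale, and this difference was not tested. The brighter dusp6 probe set had means of -0.14 and -0.17 in the same blocks. No member array stood apart from its group in the 16 sets of values examined.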

How the results depend on the processing

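The mean matched ratios and the brain differences of the 4 member probe sets were recomputed under 88 combinations of result and alternative, and 86 moved by less than 1 SD. The exceptions were the brain difference of dusp1 at -4.19 with 16 and -3.18 with 100 added in place of 50, which follow from its dim brain value. With 1 pair of a day left out, the mean ratio lay between -0.14 and -0.01 for dusp1, -0.21 and -0.12 for the brighter dusp6 probe set, 0.02 and 0.25 for the dim one, and -0.07 and 0.06 for ier5. With 1 retina left out, brain differences lay between -3.77 and -3.58 for dusp1, -1.82 and -1.76 for the brighter dusp6 probe set, -0.18 and 0.01 for the dim one, and -1.85 and -1.62 for ier5.

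The 381 probe sets called after the lesion became 0 without the replicate block (351 at an unadjusted p under 0.05 in limma), 0 with the pairs of block 1 only (784 at an unadjusted p under 0.05) and 10 with the GAPDH covariate, but 494 with the pairs of block 2 only. With 1 day left out the count was 165 (day 7) to 573 (day 14), and 239 and 195 without days 3 and 5. The 15 calls among listed genes became 8 without the filter, 0 without the block, 0 with block 1 alone, 1 with the GAPDH covariate, and 5 (day 5) to 23 (day 14) with 1 day left out. The 1073 brain calls became 2666 against block 1 retinas only and 2261 with the array block as a term. Both choices of arrays and the covariate were made after the data were seen, and apart from fewer arrays or terms the cause was not tested.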
